A study of Rattus norvegicus with 100 samples.

Results

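GW7647 at 10 µM for 6 h was set against 0 µM at the same time in primary rat hepatocytes. The arrays were chosen by their titles, and 7 of the 100 arrays of the series belong to the comparison. The 10 µM group held cultures from the rats Rs627, Rs631 and Rs632, and the 0 µM group held cultures from Rs627, Rs628, Rs631 and Rs632, 1 array per culture. Further arrays used below are the 4 at 1 µM and 6 h, and the 4 at 10 µM and 3 at 0 µM of the 2 h exposure. The full study exposed the hepatocytes of 4 rats to 5 concentrations of GW7647 for 2, 6, 12, 24 and 72 h. All cultures grew on collagen IV under a Geltrex overlay in the same medium. The labels name no strain, sex or age, and give no word on whether solvent was added at 0 µM. The question was which transcripts had changed by 6 h at the highest concentration tested.

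GW7647 is a synthetic agonist of PPARα, a nuclear receptor that binds fatty acids. PPARα pairs with a retinoid X receptor and binds DNA at paired copies of the hexamer AGGTCA separated by a single base, and in the liver its best known targets carry fatty acids into mitochondria and peroxisomes and oxidise them there. In rodents, prolonged activation of PPARα also enlarges the peroxisome population of hepatocytes.

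The promoters of the 25 largest rises were searched for that element, and the sequences with a match are printed because they belong to genes that rose at 6 h. Sequences came from a table of RefSeq promoters on the GRCr8 build, in which 18 of the 25 genes were matched, and the 250 bases upstream of the annotated start were read on both strands. The motif was AGGTCANAGGTCA with up to 2 mismatches in its 12 fixed letters. It occurred in 3 of the 18 promoters (16.7%), and in 853 of all 27457 promoters (3.11%). A single exact AGGTCA occurred in 3 of the 18 (16.7%) and in 13.7% of all promoters. Capitals mark the match, and each sequence runs 5′ to 3′ on the strand of the gene and ends at the base before the start. Fabp1, the liver fatty acid binding protein, lies on the plus strand at chr4:104749090-104749339 and matched with 1 mismatch on the opposite strand, 77 to 65 bases before the start. Among all promoters 0.386% matched that closely. Nim1k, a protein kinase gene at chr2:53451249-53451498 on the minus strand, had 2 mismatches at 110 to 98 bases before the start. Crat, carnitine acetyltransferase, at chr3:34087100-34087349 on the minus strand, had 2 mismatches at 223 to 211 bases before the start. The fourth sequence belongs to Acot1, the gene with the largest change, at chr6:109367024-109367273 on the plus strand, and has no match in this window.
Fabp1: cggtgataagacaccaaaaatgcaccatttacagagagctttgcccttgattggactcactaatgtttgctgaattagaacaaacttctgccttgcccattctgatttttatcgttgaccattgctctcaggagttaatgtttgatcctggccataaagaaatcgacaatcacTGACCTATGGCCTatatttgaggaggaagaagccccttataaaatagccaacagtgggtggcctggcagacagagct
Nim1k: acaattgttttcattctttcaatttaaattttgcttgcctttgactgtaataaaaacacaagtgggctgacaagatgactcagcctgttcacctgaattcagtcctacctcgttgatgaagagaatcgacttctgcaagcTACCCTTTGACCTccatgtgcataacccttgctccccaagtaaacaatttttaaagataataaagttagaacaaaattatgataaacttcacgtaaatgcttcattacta
Crat: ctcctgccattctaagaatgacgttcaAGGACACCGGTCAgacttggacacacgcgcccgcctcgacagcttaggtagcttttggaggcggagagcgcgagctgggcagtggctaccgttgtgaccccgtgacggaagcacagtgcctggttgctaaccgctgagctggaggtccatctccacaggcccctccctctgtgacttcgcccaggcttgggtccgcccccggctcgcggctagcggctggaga
Acot1: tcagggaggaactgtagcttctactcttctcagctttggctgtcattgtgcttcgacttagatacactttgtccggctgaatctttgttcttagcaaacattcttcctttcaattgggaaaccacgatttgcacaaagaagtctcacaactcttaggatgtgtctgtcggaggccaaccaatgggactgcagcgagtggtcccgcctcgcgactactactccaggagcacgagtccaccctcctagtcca

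All values are log2 intensities, and 1 array stood apart before any result. The 75th percentile of an array over all probe sets was 6.42 at 10 µM in Rs627, 7.26 in Rs631 and 7.25 in Rs632, against 7.18, 7.22, 7.26 and 7.24 at 0 µM in Rs627, Rs628, Rs631 and Rs632. The 10 µM Rs627 array was therefore the lowest of the 7. Its title ends in a code that has the form of a plate position, which the labels do not explain. The same code is also given to another array, as is that of the 0 µM Rs628 array. The labels name neither plates nor dates, and no within-plate value could be had. The difference between the 3′ and 5′ actin control probes was 1.66 on that array, inside the 1.34 to 1.82 of the other 6. For the GAPDH control probes it was 0.38, just above the 0.27 to 0.37 of the other 6. Within Rs627, the median difference of all genes was -0.58 and 2207 of 8843 genes were lower by more than 1. The medians within Rs631 and Rs632 were -0.02 and -0.04, with 20 and 56 genes lower by that much. The counts of calls for this comparison and for its gene lists are therefore given with and without this array wherever leaving it out changes them.

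**Figure D1:**
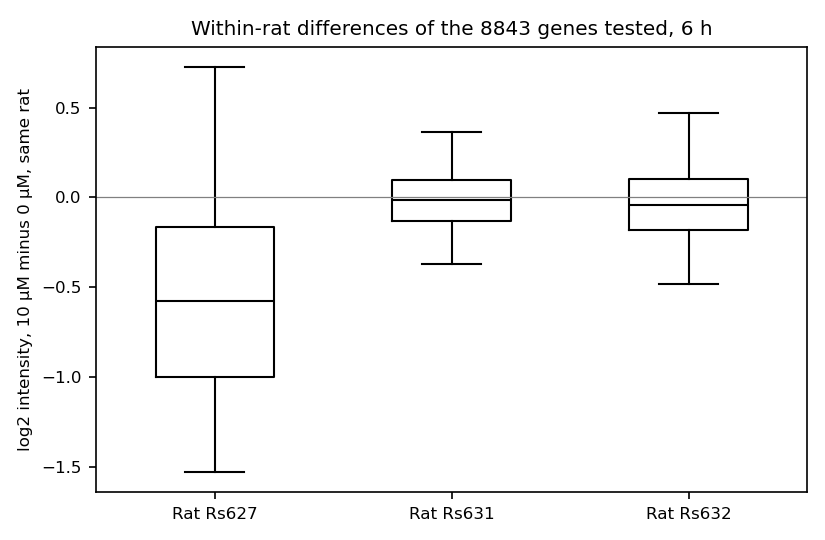
Boxes show the interquartile range of the 8843 within-rat differences (10 µM minus 0 µM, log2 intensity) at 6 h in each of the 3 rats with both arrays, the line is the median and whiskers run between the 5th and 95th percentiles. The box of Rs627 lies lower, around a median of -0.58, than those of Rs631 and Rs632.

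Of 8843 genes that exceeded log2 5 on 3 or more arrays, 380 (4.30%) passed an adjusted p of 0.05 in limma at 10 µM against 0 µM. Of these, 138 (1.56%) were higher and 242 (2.74%) were lower at 10 µM. Without the 10 µM Rs627 array, 135 genes (1.53%) passed, 124 (1.40%) higher and 11 (0.124%) lower. With the rat as a replicate block 1282 genes (14.5%) passed, and 254 (2.87%) were higher and 1028 (11.6%) were lower, and with the block but without that array 237 (2.68%) were higher and 62 (0.701%) lower, 3.38% in all. With every array centred on a common median, 300 (3.39%) were higher and 67 (0.758%) were lower, 4.15% in all. The number of higher genes thus stayed between 124 and 300 over these settings, and that of lower genes between 11 and 1028.

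Of the 138 rises 58 exceeded 2-fold, as did 46 of the 242 falls, all with the 10 µM Rs627 array included. Of the rises, 136 were positive within each of the 3 rats, and 108 also passed without the 10 µM Rs627 array. Their median log2 change was 0.87, and 0.91 without that array. Of the 242 falls, 231 had their lowest 10 µM value on that array, which held for 6971 of all 8843 genes and for 58 of the 138 rises. The median log2 change of the falls was -0.66, and -0.36 without the array, and 11 of them passed without it. Within each of the 3 rats 239 of the falls were negative, and all 242 kept their sign without the array. With the replicate block and without the array, 40 of the 242 falls and 135 of the 138 rises passed. The genes were selected on these same arrays, so a shared sign is no independent support. Every 10 µM array lay above every 0 µM array for 132 of the 138 rises and for 278 of all genes tested (3.14%), and below for 182 of the 242 falls and 848 of all genes (9.59%).

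**Figure D2:**
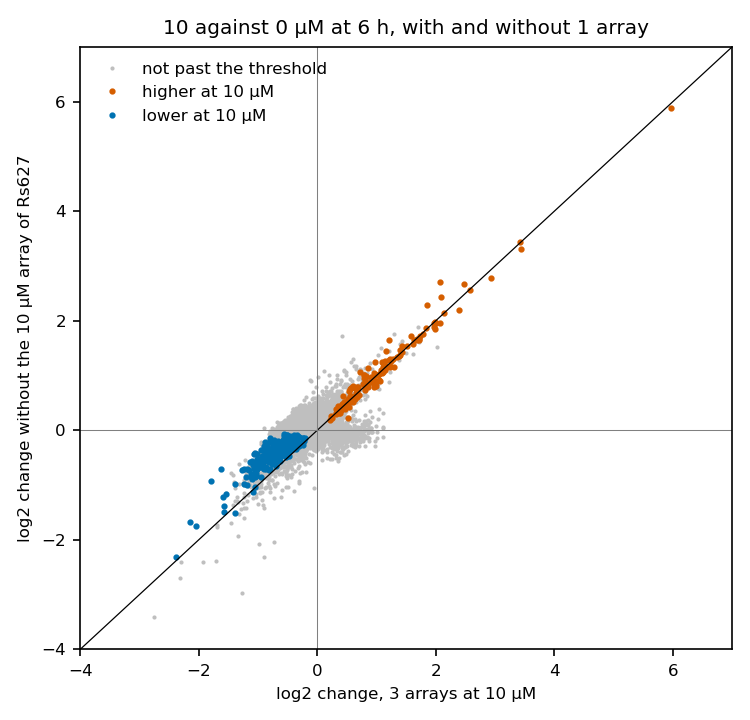
Each point is 1 of the 8843 genes, with the log2 change of 10 against 0 µM at 6 h from all 3 arrays at 10 µM on the x axis and without the 10 µM array of Rs627 on the y axis, and the diagonal marks equal values. The 138 higher genes lie near the diagonal, whereas most of the 242 lower genes lie above it, at a smaller fall without that array.

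Of 12 genes of peroxisomal oxidation tested, 6 rose and none fell, the same count as without the 10 µM Rs627 array, and the median log2 change of the 12 was 0.33 against -0.19 over all genes. Ehhadh, a bifunctional enzyme that carries out the middle steps of peroxisomal β-oxidation, read 11.76, 11.39 and 11.38 at 10 µM in Rs627, Rs631 and Rs632, against 7.94, 9.13, 7.76 and 7.49 at 0 µM in Rs627, Rs628, Rs631 and Rs632, and arrays are given in this order of rats throughout. All 10 µM values lay more than 2 above the highest 0 µM value, and the change was 10.8-fold (log2 3.43 ± 0.26, SE from the fit, adjusted p = 1.20e-16). Hacl1, which removes a formyl group in the α-oxidation of branched fatty acids, rose 4.18-fold (10.26, 9.89 and 10.04 at 10 µM, against 8.02, 8.74, 7.60 and 7.63 at 0 µM, adjusted p = 9.13e-09). Abcd3, a transporter of the peroxisomal membrane, rose 2.12-fold, and Crot, which makes medium-chain acylcarnitines for export from the peroxisome, rose 2.34-fold. Ech1 (1.81-fold) and Hsd17b4, the other bifunctional enzyme (1.37-fold), also rose. The members that did not pass included catalase, Cat, at 1.15-fold (adjusted p = 0.219), and Acox2, the oxidase of bile acid intermediates, at a log2 change of -0.29 (adjusted p = 0.594). In these bulk cultures, fewer cells of a type and less RNA per cell cannot be told apart.

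In peroxisome assembly and division, of 12 genes tested, 3 rose with and without the 10 µM Rs627 array, and the median log2 change was 0.09. Pex11a, which drives peroxisome division, read 10.86, 10.64 and 11.05 at 10 µM, against 9.36, 9.97, 8.20 and 8.96 at 0 µM (3.31-fold, log2 1.73 ± 0.33, adjusted p = 0.000220). Every 10 µM value lay above every 0 µM value. Pex16, which brings membrane proteins to new peroxisomes, rose 1.72-fold (adjusted p = 0.00493), and Pex19, the chaperone of those proteins, rose 1.45-fold (adjusted p = 0.0268). The import receptors Pex5 (log2 -0.17, adjusted p = 0.435) and Pex7 (-0.18, adjusted p = 0.254) did not pass. Lonp2, a protease of the peroxisome matrix, rose 1.78-fold (log2 0.83 ± 0.10, adjusted p = 1.61e-09).

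Of 21 genes of the carnitine shuttle and mitochondrial β-oxidation tested, 14 rose and none fell, 20 had a positive change, and the median was 0.59. Without the 10 µM Rs627 array 12 rose, Hadhb and Acadm no longer passing (adjusted p = 0.0595 and 0.103), and with the replicate block 17 rose, Decr1, Etfdh and Acadl being added. With the block and without the array 17 rose. Cpt1a, the outer-membrane enzyme that loads long-chain fatty acids onto carnitine, read 10.73, 10.52 and 10.56 at 10 µM, against 9.18, 9.33, 8.40 and 8.64 at 0 µM (3.29-fold, log2 1.72 ± 0.26, adjusted p = 1.46e-06). Its muscle-type relative Cpt1b read 8.42, 8.13 and 8.58 at 10 µM, against 7.22, 6.57, 6.499 and 6.47 at 0 µM (3.22-fold, adjusted p = 0.00231). Crat, which buffers acetyl-CoA with carnitine, read 9.15, 9.08 and 9.15 at 10 µM, against 7.18, 7.82, 6.85 and 6.75 at 0 µM (3.94-fold, log2 1.98 ± 0.21, adjusted p = 3.42e-11). For all 3 genes the groups did not overlap and the 10 µM arrays lay closer together than the 0 µM arrays. The carnitine importer Slc22a5 (2.98-fold), the inner-membrane Cpt2 (2.36-fold) and the carnitine carrier Slc25a20 (1.97-fold) rose as well. The chain-shortening enzymes rose less, from Acaa2 at 1.81-fold and Acadvl at 1.51-fold to Hadha at 1.39-fold and Hadhb at 1.24-fold (Acadm, Hadha and Hadhb are named here after their values were seen). Echs1, the short-chain enoyl-CoA hydratase, had a log2 change of -0.17 (adjusted p = 0.441), and the electron carriers Etfa (0.08, adjusted p = 0.387) and Etfb (0.22, adjusted p = 0.235) did not pass. For Eci1, which rose 1.58-fold, another probe set was not called (adjusted p = 0.725).

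Thioesterases, which release fatty acids from coenzyme A, held the largest change of the comparison. Of 7 tested, 4 rose with and without the 10 µM Rs627 array, and the median log2 change was 1.15. Acot1, the cytosolic long-chain enzyme, read 11.14, 10.84 and 10.95 at 10 µM, against 5.39, 7.44, 3.27 and 3.91 at 0 µM. The 10 µM arrays lay close together (SD 0.16, n = 3), whereas the 0 µM arrays were widely spread, with Rs628 highest (SD 1.85, n = 4). The log2 change was 5.97 ± 0.70 as measured (adjusted p = 1.21e-09), and with values under 5 set to 5 the rise was at least 38.6-fold. Acot2, its mitochondrial neighbour in sequence, rose 2.43-fold, Acot7 rose 2.44-fold and Acot12 rose 2.22-fold. Acot1 and Acot2 are close relatives whose probes may share signal, so their separate sizes are uncertain. The peroxisomal Acot8 (1.22-fold, adjusted p = 0.217), Acot9 (1.07-fold, adjusted p = 0.776) and Acot13 (log2 -0.08, adjusted p = 0.807) did not pass.

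**Figure D3:**
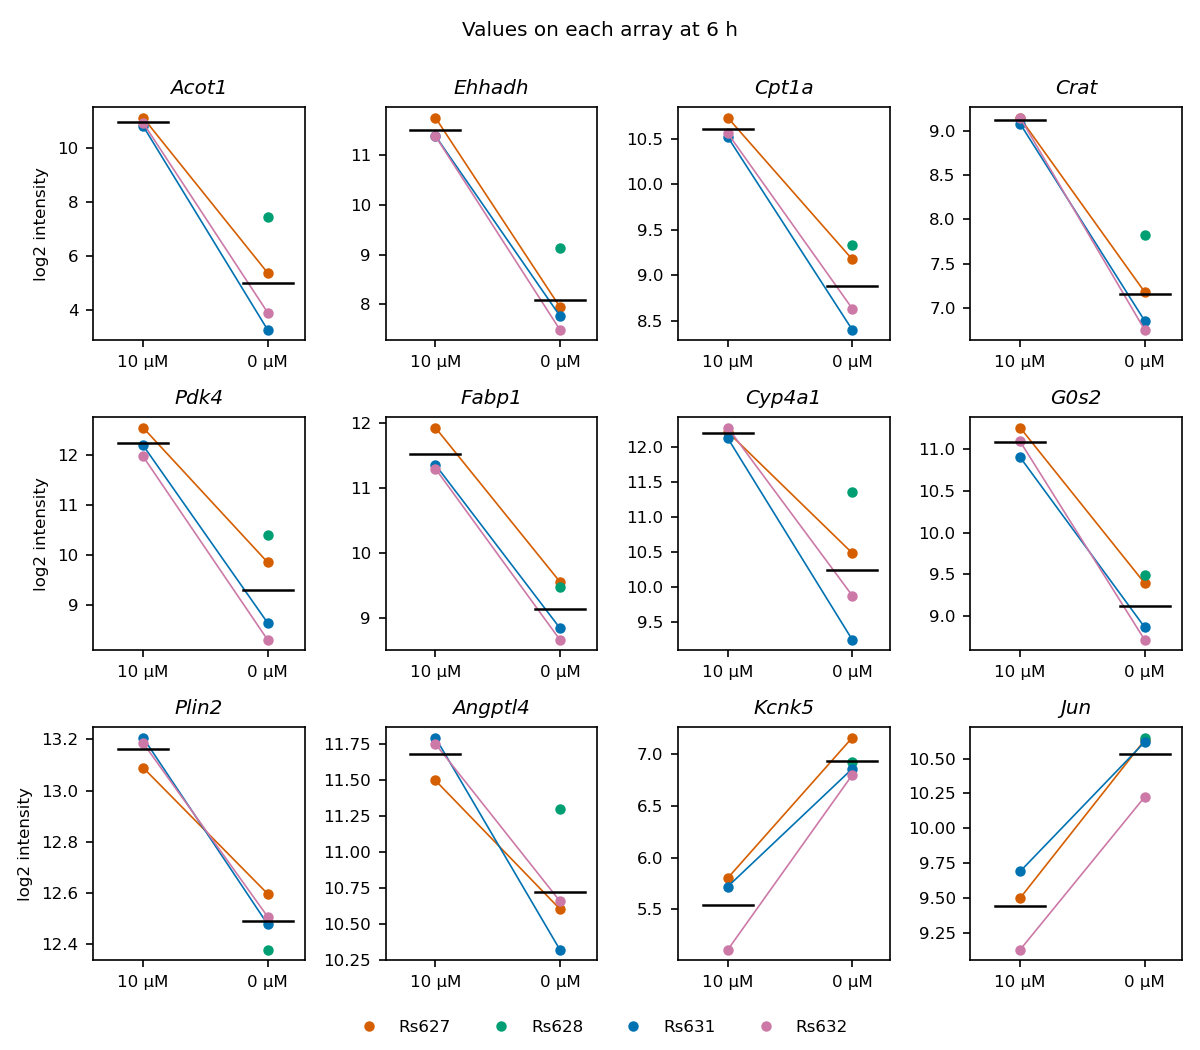
Points are log2 intensities on each array at 6 h for 12 genes, 10 µM on the left and 0 µM on the right, coloured by rat, with lines joining arrays of the same rat and black bars at the group means, and each panel has its own y axis. The first 10 genes lie higher and Kcnk5 and Jun lower on every 10 µM array than on any 0 µM array.

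Of 12 genes of coenzyme A synthesis and breakdown, 3 rose with and without the 10 µM Rs627 array, where 1.56% of all genes tested rose, and the replicate block added a further 2. Pank1, the kinase that opens coenzyme A synthesis, read 9.83, 10.10 and 10.02 at 10 µM, against 8.54, 8.95, 8.51 and 8.37 at 0 µM (2.62-fold, adjusted p = 6.79e-08). Nudt7, a peroxisomal hydrolase of coenzyme A esters, rose 2.85-fold (log2 1.51 ± 0.17, adjusted p = 4.50e-10), and Ppcs, a later enzyme of the synthesis, rose 2.34-fold (adjusted p = 0.000307). The list thus held both a synthetic and a degrading enzyme among its rises.

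In microsomal ω-oxidation, 3 of 6 genes rose, and 2 without the 10 µM Rs627 array. Cyp4a1, the fatty acid ω-hydroxylase, read 12.22, 12.13 and 12.28 at 10 µM, against 10.49, 11.36, 9.25 and 9.88 at 0 µM (3.91-fold, log2 1.97 ± 0.29, adjusted p = 5.76e-07). Cyp4a3, a related hydroxylase, rose 2.60-fold (adjusted p = 1.91e-06), and Aldh3a2, the fatty aldehyde dehydrogenase, rose 1.29-fold (adjusted p = 0.0105, and 0.183 without the array). With the replicate block 3 genes of the list rose, both with and without the array. Members of the Cyp4a family may share probes. The leukotriene hydroxylases Cyp4f1, Cyp4f4 and Cyp4f6 passed as falls only with the replicate block (adjusted p = 0.0222, 0.0427 and 0.0349), and none passed with the block once the array was left out.

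Uptake, binding and activation gave 3 rises among 17 genes, with and without the 10 µM Rs627 array. Fabp1, the protein whose promoter is printed above, read 11.93, 11.36 and 11.30 at 10 µM, against 9.56, 9.48, 8.85 and 8.67 at 0 µM (5.23-fold, log2 2.39 ± 0.42, adjusted p = 5.29e-05). Acsl1, the main long-chain acyl-CoA synthetase of liver, read 12.09, 11.92 and 12.05 at 10 µM, against 10.34, 10.995, 10.14 and 10.15 at 0 µM (3.06-fold, adjusted p = 1.76e-10), and Acsl3 rose 2.53-fold (adjusted p = 0.00519). For Fabp1 and Acsl1 the lowest 10 µM array stood above the highest 0 µM array. The fatty acid translocase Cd36 was already high in both groups, at 12.46, 12.04 and 12.58 at 10 µM and 12.19, 11.81, 11.17 and 12.16 at 0 µM, and did not pass (adjusted p = 0.293). With the replicate block 7 genes of the list rose (Acsl5, Vldlr, Fabp3 and Cd36 added), and with the block and without the array 3.

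Storage and release of triglyceride gave 6 rises among 12 genes, again the same count without the 10 µM Rs627 array, and all 12 changes were positive (median 0.62). G0s2, an inhibitor of the triglyceride lipase ATGL, read 11.26, 10.91 and 11.10 at 10 µM, against 9.40, 9.49, 8.87 and 8.71 at 0 µM (3.92-fold, log2 1.97 ± 0.39, adjusted p = 0.000339). Pnpla2, which encodes ATGL, read 8.59, 8.58 and 8.52 at 10 µM, against 7.37, 7.62, 7.38 and 7.19 at 0 µM (2.26-fold, adjusted p = 1.01e-07). A lipase and its inhibitor were therefore both higher, on every 10 µM array. Mgll, the monoglyceride lipase, rose 1.94-fold. The droplet coat proteins Plin5 (2.19-fold) and Plin2 (1.59-fold) and the droplet-forming Fitm2 (2.14-fold) also rose. For Plin2 the other 2 probe sets were not called (log2 0.52 and -0.18). Cidec, a droplet fusion protein, had a log2 change of 0.05 ± 0.12 (adjusted p = 0.809).

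Control of pyruvate dehydrogenase gave 3 rises and 1 fall among 10 genes, and 3 rises and 0 falls without the 10 µM Rs627 array. With the replicate block 3 rose and 1 fell, both with and without that array. Pdk4, the kinase that switches the complex off, read 12.54, 12.19 and 11.96 at 10 µM, against 9.86, 10.39, 8.65 and 8.32 at 0 µM (7.59-fold, log2 2.92 ± 0.46, adjusted p = 3.11e-06). Its relative Pdk2 fell 1.39-fold (adjusted p = 0.0486, and 0.473 without the 10 µM Rs627 array). For Pdk2 another probe set was not called (log2 -0.41, adjusted p = 0.247). Mpc2, a subunit of the mitochondrial pyruvate carrier, rose 1.44-fold, and Pdp2, a phosphatase that switches the complex on, rose 1.72-fold. For Pdp2 the other probe set had a similar log2 change of 0.80 but was not called (adjusted p = 0.143). The catalytic subunits Pdha1 and Pdhb had log2 changes of -0.04 and -0.05 (adjusted p = 0.812 and 0.772).

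Among 17 genes of glycerol and glucose metabolism 5 rose, and 3 without the 10 µM Rs627 array. Gk, which phosphorylates glycerol, read 11.62, 10.99 and 11.43 at 10 µM, against 9.62, 9.96, 8.80 and 9.07 at 0 µM (3.96-fold, log2 1.99 ± 0.27, adjusted p = 5.58e-08). Gpd2, the mitochondrial glycerol-3-phosphate dehydrogenase, rose 3.57-fold (adjusted p = 1.97e-07). Glycerol 3-phosphate, the product of Gk, is the substrate of Gpd2. Txnip, a binding protein of thioredoxin that also curbs glucose uptake, rose 3.10-fold (adjusted p = 4.90e-05). Gpd1 (2.14-fold) and Fbp1 (1.31-fold) rose with all arrays and missed the threshold without that array (adjusted p = 0.0526 and 0.123). With the replicate block 6 genes of the list rose and 1 fell, and with the block and without that array 6 rose and 0 fell. For Gpd1 another probe set was not called (log2 0.95, adjusted p = 0.170). Pck1, the gatekeeper of gluconeogenesis, had a log2 change of -0.57 and did not pass (adjusted p = 0.565).

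Genes that make fatty acids and triglyceride gave 6 rises among 20, and 2 without the 10 µM Rs627 array. Elovl6, which elongates saturated fatty acids, read 10.47, 10.21 and 10.68 at 10 µM, against 8.32, 8.86, 7.99 and 8.04 at 0 µM (4.42-fold, log2 2.15 ± 0.29, adjusted p = 5.58e-08), and Dgat2, which adds the last acyl chain of triglyceride, rose 1.76-fold (adjusted p = 0.00292). These 2 passed without the array. Me1 (2.08-fold), Srebf1 (1.56-fold), Agpat2 (1.39-fold) and Scd (1.32-fold) did not pass without it, at adjusted p = 0.0755, 0.0873, 0.441 and 0.178. All 4 passed with the replicate block and without the array (adjusted p = 8.71e-10, 0.0152, 0.0173 and 0.0355). For Srebf1 another probe set was not called (adjusted p = 0.783). Fasn, the fatty acid synthase, read 10.94, 10.49 and 10.29 at 10 µM, against 10.36, 10.14, 10.07 and 10.21 at 0 µM, and did not pass (adjusted p = 0.269).

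In the cholesterol and lipoprotein lists the calls were near the share over all genes, of which 1.56% rose and 2.74% fell. Of 19 cholesterol genes, Insig1, which holds the sterol sensor in the endoplasmic reticulum, rose 1.85-fold (log2 0.89 ± 0.16, adjusted p = 7.01e-05) and passed without the 10 µM Rs627 array. With the replicate block 5 rose and 1 fell, and with the block and without the array 3 rose. Of 16 apolipoprotein and lipoprotein genes, Mttp, which loads lipid onto apolipoprotein B, rose 1.51-fold (adjusted p = 0.00156). Apoa5, an activator of plasma triglyceride clearance, read 8.68, 9.56 and 8.97 at 10 µM, against 10.02, 10.51, 10.25 and 9.73 at 0 µM, a 2.08-fold fall (adjusted p = 0.0480, and 0.504 without the array). With the replicate block 2 of these 16 genes rose and 1 fell, and with the block and without the array 1 rose and 1 fell. None of 10 bile acid genes passed.

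A list of other genes known to respond to PPARα held 16 tested genes, some of them also members of lists above. Of the 16, 5 rose and Apoa5 fell, and without the 10 µM Rs627 array 5 rose. The rises of Nudt7 and Pank1 and the fall of Apoa5 were already counted above. With the replicate block 8 rose, Slc25a42, Retsat and Vnn1 being added (adjusted p = 0.0163, 0.0168 and 0.00702). With the block and without the 10 µM Rs627 array 7 rose and 1 fell. Angptl4, which the cell secretes to inhibit lipoprotein lipase, read 11.50, 11.79 and 11.75 at 10 µM, against 10.60, 11.30, 10.32 and 10.66 at 0 µM (1.94-fold, log2 0.96 ± 0.16, adjusted p = 1.97e-05). Its 0 µM array of Rs628 stood close under the 10 µM array of Rs627, and the groups did not overlap. Creb3l3, a liver transcription factor of fasting, rose 2.04-fold, and Hsdl2, a peroxisomal protein, rose 2.20-fold. Fgf21, a fasting hormone of liver, read 10.45, 9.99 and 9.97 at 10 µM, against 9.90, 9.54, 8.99 and 8.87 at 0 µM. Its groups did not overlap, yet the change of 1.75-fold did not pass (adjusted p = 0.197). Of 6 ketone body genes (2 rises with the replicate block) only Acat1, the mitochondrial acetoacetyl-CoA thiolase, rose (10.51, 10.59 and 10.67 at 10 µM, against 9.45, 9.69, 9.47 and 9.32 at 0 µM, 2.16-fold, adjusted p = 3.66e-11). Ppara itself lay under 5, the floor used here, on all 7 arrays, which does not show that its transcript was absent. None of 16 nuclear receptor and coactivator genes, a list without Rxrg, passed, where 4.30% of all genes tested did. With the replicate block 1 of the 16 rose, Pparg, a receptor related to PPARα (log2 0.56, adjusted p = 0.0306, and 0.206 with the block and without the 10 µM Rs627 array).

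**Figure D4:**
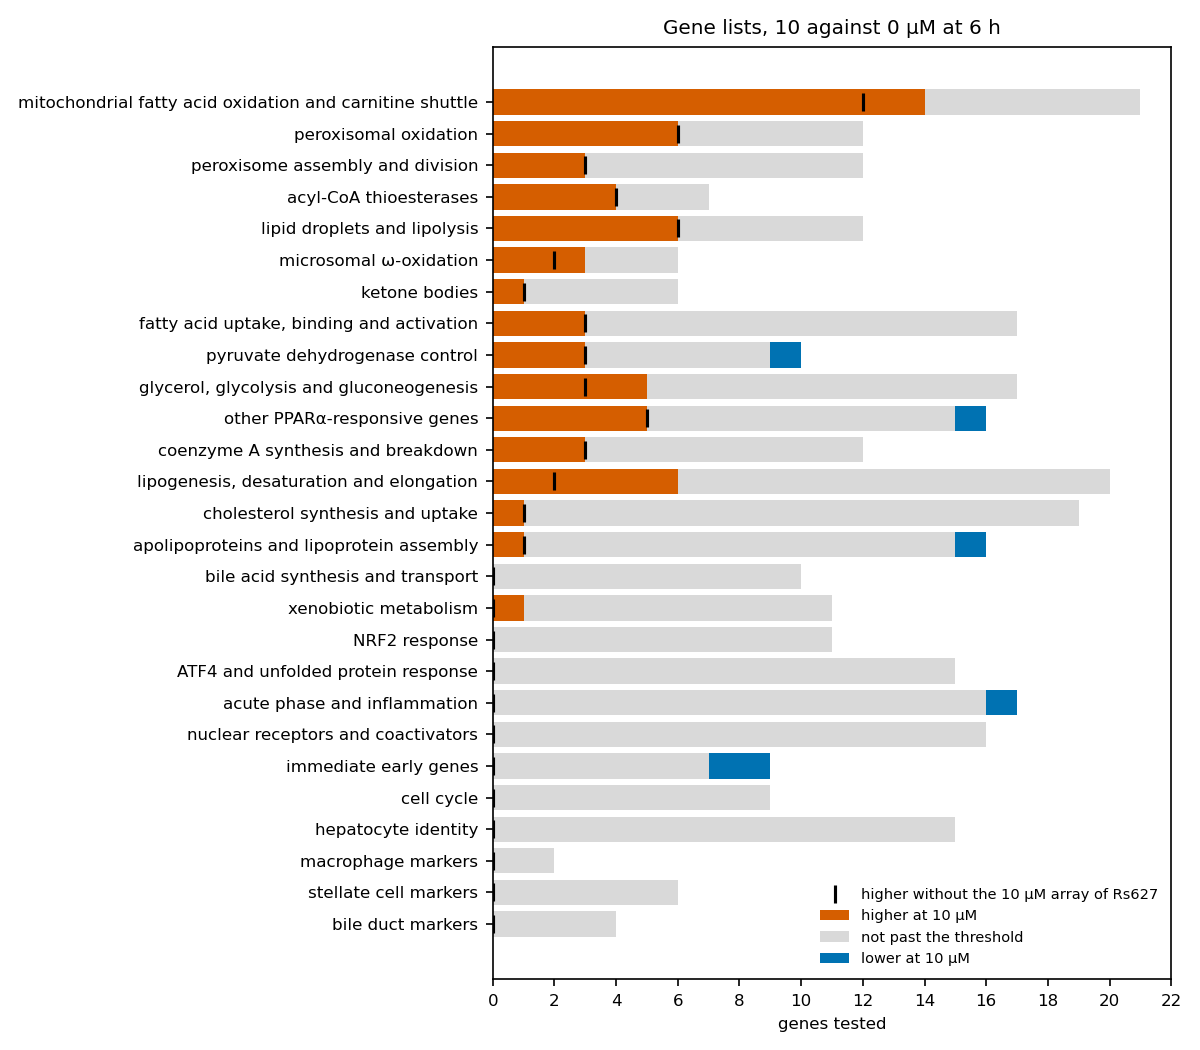
Horizontal bars give, for each gene list with a tested gene, the number of genes tested, split into those higher at 10 µM, those not past the threshold and those lower at 10 µM, and a black tick gives the number higher without the 10 µM array of Rs627. The mitochondrial list has the most rises, 14 of 21, and the tick falls short of the coloured end by the widest margin for lipogenesis, at 2 against 6.

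Several of the 25 largest rises belonged to none of the oxidation lists. Slc34a2, a sodium phosphate cotransporter, read 10.33, 9.69 and 10.91 at 10 µM, against 8.28, 8.15, 6.22 and 8.28 at 0 µM (5.95-fold, adjusted p = 0.00681). Serpine2, an inhibitor of serine proteases, rose at least 4.42-fold (6.998, 7.25 and 7.87 at 10 µM, against 4.93, 5.93, 4.36 and 4.37 at 0 µM, adjusted p = 0.000220). Sgk2, a kinase related to Akt, read 6.598, 7.58 and 7.68 at 10 µM, against 5.08, 5.27, 5.29 and 5.17 at 0 µM (4.24-fold, adjusted p = 3.14e-08). In each of them the lowest 10 µM array stood above the highest 0 µM array. Nim1k, whose promoter is printed above, rose at least 3.91-fold (log2 2.01 ± 0.42, adjusted p = 0.00115). Colq, the collagen tail that anchors acetylcholinesterase, was under 5 on all 4 arrays at 0 µM and above 5 on all 3 at 10 µM, a rise of at least 2.42-fold (adjusted p = 4.33e-05). Apol9a rose 3.45-fold, Pctp, a carrier of phosphatidylcholine, rose 3.30-fold, and Rxrg, a partner receptor of PPARα, rose 3.21-fold. Pgrmc2, a haem-binding membrane protein, was not among the 25 and is named for its difference between 6 h and 2 h, given below. It had a narrow spread (11.07, 10.90 and 10.96 at 10 µM, against 9.71, 9.90, 9.72 and 9.66 at 0 µM) and rose 2.34-fold (log2 1.23 ± 0.10, adjusted p = 1.61e-15).

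Cyp1a2 and Aldh3a1, a cytochrome P450 and an aldehyde dehydrogenase known as targets of the aryl hydrocarbon receptor, were also among the 25. Cyp1a2 read 8.24, 8.38 and 8.20 at 10 µM, against 5.63, 3.84, 5.32 and 4.64 at 0 µM, a rise of at least 8.21-fold (log2 3.42 ± 0.96, adjusted p = 0.0245). Without the 10 µM Rs627 array its log2 change was 3.43 and the adjusted p 0.127. Aldh3a1 read 5.42, 7.66 and 7.05 at 10 µM, against 5.03, 4.70, 4.35 and 4.49 at 0 µM, at least 3.25-fold (adjusted p = 0.0351). Neither gene overlapped between the groups. Cyp1a1, the best known target of that receptor, read 12.31, 11.61 and 12.35 at 10 µM, against 11.18, 9.42, 10.44 and 10.44 at 0 µM and did not pass (log2 1.72 ± 0.62, adjusted p = 0.0910, and 0.00894 with the replicate block). Cyp1a2 was the only call among 11 xenobiotic genes, and none of 11 NRF2 genes passed, where 4.30% of all genes tested did. Nqo1 of the NRF2 list was 2.83-fold higher in the mean (adjusted p = 0.0903, and 0.00871 with the replicate block). With the block 3 xenobiotic genes and 1 NRF2 gene rose.

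The falls that passed both with and without the 10 µM Rs627 array were 11 genes, and 5 of them (Arfgap3, Cfap20, F11r, Gmcl1 and Ivns1abp) are named because they are in this set, after their values were seen. Kcnk5, a background potassium channel, read 5.80, 5.72 and 5.11 at 10 µM, against 7.15, 6.92, 6.85 and 6.79 at 0 µM (2.62-fold lower, log2 -1.39 ± 0.22, adjusted p = 3.44e-06). Jun, a subunit of the AP-1 transcription factor, read 9.50, 9.69 and 9.13 at 10 µM, against 10.63, 10.65, 10.62 and 10.22 at 0 µM (2.13-fold lower, adjusted p = 0.00131). Dusp1, a phosphatase that inactivates MAP kinases, read 9.78, 10.12 and 9.99 at 10 µM, against 10.64, 10.75, 10.83 and 10.88 at 0 µM (1.76-fold lower, adjusted p = 0.000832). The groups did not overlap for any of these 3 genes, and the lowest 10 µM array was that of Rs632 for Kcnk5 and Jun and that of Rs627 for Dusp1. Edn1, the precursor of endothelin, was under 5 on all 3 arrays at 10 µM and between 5.79 and 6.00 at 0 µM, a fall of at least 1.87-fold (adjusted p = 0.00114). Depdc5, a subunit of a complex that restrains mTORC1, fell at least 2.34-fold, and Sec16b, a scaffold of export sites on the endoplasmic reticulum, fell 2.36-fold. Without the array the log2 changes of the other 5 were -0.57 (Arfgap3), -0.54 (Cfap20), -0.47 (F11r), -0.66 (Gmcl1) and -0.998 (Ivns1abp).

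Jun and Dusp1 were the only calls among 9 immediate early genes, and both fell, where 2.74% of all genes tested fell. Klf6 read 9.48, 9.83 and 9.44 at 10 µM, against 10.53, 10.54, 10.53 and 10.25 at 0 µM and missed the threshold (log2 -0.88 ± 0.28, adjusted p = 0.0576, and 0.00380 with the replicate block). With the block 4 immediate early genes fell and 1 rose, and with the block and without the 10 µM Rs627 array 2 fell and 1 rose. Egr1 had a log2 change of -0.03 with a standard error of 0.96. Of the 15 largest falls, Kcnk5, Edn1, Depdc5 and Sec16b passed without the 10 µM Rs627 array, and the others did not. Smpd3, a neutral sphingomyelinase, was under 5 on all 3 arrays at 10 µM and read 6.21, 7.06, 5.40 and 6.76 at 0 µM, a fall of at least 2.56-fold (adjusted p = 0.0259, and 0.158 without the array). Gna14, a G protein subunit, fell 4.46-fold (adjusted p = 0.0423, and 0.535 without). Magee1 read 5.68, 8.38 and 8.13 at 10 µM, against 9.10, 8.41, 9.65 and 9.59 at 0 µM (adjusted p = 0.00248, and 0.504 without), so that 1 array lay far under the other 2. Cebpd, an inducer of acute-phase genes, read 4.49, 7.63 and 6.84 at 10 µM, against 7.31, 7.75, 8.50 and 8.25 at 0 µM, and its log2 change of -1.63 became -0.72 without the array (adjusted p = 0.0483 and 0.999). It was the only call among 17 acute-phase and inflammatory genes, a count near the 4.30% of all genes tested that passed.

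No hepatocyte marker of 15 tested passed (Apob rose with the replicate block, log2 0.25, adjusted p = 0.0117, and 0.0688 with the block and without the 10 µM Rs627 array), and the log2 of their summed intensities ran from 15.79 to 15.90 at 10 µM and from 15.82 to 15.90 at 0 µM. Such a sum weighs the most intense transcripts most, among them Alb, which averaged 13.71 in both groups. None of 15 genes of the ATF4 and unfolded protein response and none of 9 cell cycle genes passed. Over all genes tested 4.30% passed, so the absence of calls in lists this short is near that share. Of 11 macrophage markers with a probe set, 9 lay at or under 5 on all 7 arrays, among them Cd163, Adgre1 and Csf1r, and the summed level ran from 7.17 to 7.87 at 10 µM and from 6.94 to 7.36 at 0 µM. All 7 endothelial markers, including Pecam1 and Kdr, lay at or under 5 on all 7 arrays, with sums of 5.95 to 6.11 at 10 µM and 6.01 to 6.08 at 0 µM. Of 10 stellate markers 5 did, including Col1a1, Des and Lrat, with sums of 8.01 to 8.23 at 10 µM and 7.73 to 8.25 at 0 µM. Of 7 bile duct markers 3 did, and sums were 10.15 to 10.95 at 10 µM and 10.32 to 11.21 at 0 µM, with Epcam the highest of them at 10.03 to 10.72 at 10 µM and 10.22 to 11.11 at 0 µM. On the 10 µM Rs627 array, Cd5l (6.69) and Spp1 (6.75) were above 5, whereas all 6 other arrays read 3.67 to 4.20 for Cd5l and 4.46 to 4.64 for Spp1, and their part in the results was not tested.

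The next comparison asked whether 10 µM differed from 1 µM at the same time. None of 8843 genes (0%) passed in limma, 341 had an unadjusted p under 0.05, and the smallest adjusted p was 0.836. Ehhadh averaged 11.51 ± 0.21 at 10 µM and 11.54 ± 0.19 at 1 µM (SD, n = 3 and 4), a log2 difference of -0.03 with a 95% interval from -0.55 to 0.50. The interval of the difference was -0.54 to 0.49 for Cpt1a, -0.84 to 0.98 for Pdk4 and -1.45 to 1.34 for Acot1, so that a further change of 2-fold was inside it for Acot1 and outside it for Ehhadh and Cpt1a. Among the falls, Kcnk5 was lower by a log2 difference of -0.32 (interval -0.76 to 0.11) and Edn1 by -0.41 (interval -1.08 to 0.25) at 10 µM. Sec16b had the difference -0.54 (unadjusted p = 0.0244, adjusted p = 0.836).

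Levels at the other concentrations at 6 h share their 0 µM arrays and are given as values. Against 0 µM, 0 genes passed at 0.001 and 0.01 µM, 81 at 0.1 µM (78 higher, 3 lower), 180 at 1 µM (153 higher, 27 lower) and 380 at 10 µM (138 higher, 242 lower) in the same limma model. Without the 10 µM Rs627 array the count at 10 µM was 135 (124 higher, 11 lower). That setting takes 1 of the 3 arrays from the 10 µM group, whereas the 1 µM group held 4. The number of calls also depends on the number of arrays, so these counts do not rank the 2 concentrations. Acot1 averaged 5.00 at 0 µM, 4.43 at 0.001 µM, 7.98 at 0.01 µM, 10.24 at 0.1 µM, 11.03 at 1 µM and 10.98 at 10 µM. Most of its rise was thus present at 0.1 µM. Fabp1 had log2 changes of -0.02, 0.47, 2.00, 2.35 and 2.39 at these concentrations, and Pdk4 of -0.34, 1.06, 2.50, 2.85 and 2.92. Jun had log2 changes of -0.23, -0.30, -0.72, -0.88 and -1.09. Cyp1a2 averaged 4.85 at 0 µM, under 5, and 6.96, 6.98, 7.33, 7.39 and 8.27 at these concentrations. Its SD was 1.60 (n = 3) at 0.01 µM and 0.09 (n = 3) at 10 µM, and it passed at 10 µM only, a call lost without the 10 µM Rs627 array. Aldh3a1 averaged 4.64 at 0 µM, under 5, and 5.85, 5.78, 6.37, 6.02 and 6.71 at these concentrations. Its mean was thus above that of 0 µM at every concentration, although it passed at 10 µM only.

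**Figure D5:**
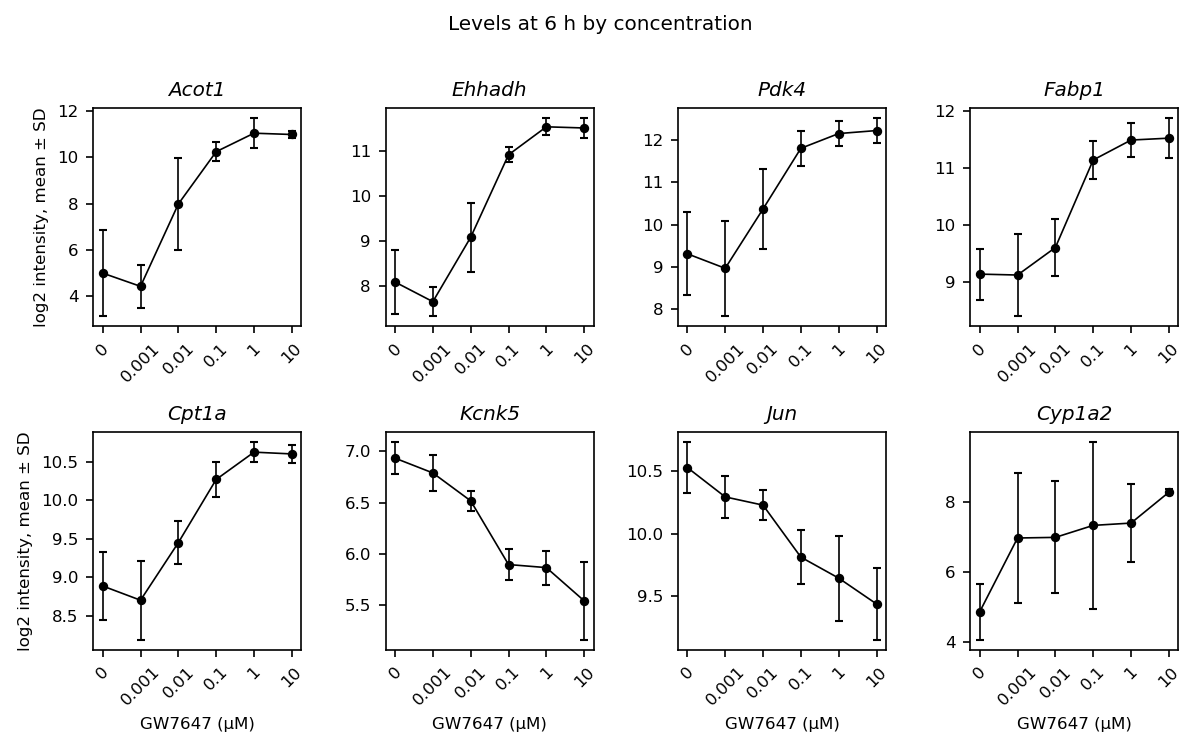
Points are mean log2 intensities at 6 h with SD bars (n = 3 or 4) for 8 genes, by GW7647 concentration in equally spaced steps, each panel with its own y axis. Acot1, Ehhadh, Pdk4, Fabp1 and Cpt1a lie close at 1 and 10 µM, and Cyp1a2 lies above 0 µM at every concentration with wide bars at 0.001 to 1 µM.

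The last comparison asked whether the change at 10 µM was larger at 6 h than at 2 h. It passed for 4 of 8843 genes (0.0452%), 3 of them (0.0339%) with a higher and 1 (0.0113%) with a lower change at 6 h. Pgrmc2 had a log2 change of 1.23 at 6 h and 0.49 at 2 h, a difference of 0.74 ± 0.14 (adjusted p = 0.0163). Acat1 had 1.11 at 6 h and 0.35 at 2 h, a difference of 0.76 ± 0.16 (adjusted p = 0.0427), and Lonp2 had 0.83 and 0.17, a difference of 0.66 ± 0.14 (adjusted p = 0.0427). Fbxo34, an F-box protein, had -0.61 at 6 h and 0.38 at 2 h, a difference of -0.99 ± 0.22 (adjusted p = 0.0427). None of the 4 passed without the 10 µM Rs627 array of 6 h, where the difference was 0.69 for Pgrmc2, 0.80 for Acat1 and 0.64 for Lonp2, close to the values with it, and -0.66 for Fbxo34. With the replicate block 23 genes passed, and 30 with the block and without that array. At 2 h, Pdk4 had a log2 change of 3.81, against 2.92 at 6 h, and Angptl4 of 1.60, against 0.96. These 2 differences between times did not pass.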

How the data were processed

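RNA from primary rat hepatocytes was labelled with a 3′ IVT kit and hybridised to Affymetrix arrays, 1 array per culture, per the labels' protocols. The log2 intensity values were deposited by the authors, and the submitters' processing notes name GCRMA and Partek, while versions and other settings are not given in the sources used here. Of 31139 probe sets, 19069 had 1 gene symbol, 572 had several and 11498 had none in the platform annotation. Each of 13439 genes was taken from its probe set with the highest mean, and 8843 genes above log2 5 in at least 3 arrays were tested. A model with 30 groups over all 100 arrays (70 residual degrees of freedom) was fitted with limma 3.58.1 in R 4.3.3, and p-values were adjusted by Benjamini-Hochberg over the 8843 genes at 0.05. Values at or under 5 were treated as a floor, and a fold against them is given as a lower bound with values under 5 set to 5. The number of arrays limits the precision.

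Named genes were up to 25 rises and 15 falls by size with the same sign in all 3 rats, up to 8 members of each gene list by p, members that did not pass, and a few known PPARα targets. The comparison, genes and lists were chosen with earlier results of these data known. Arrays of the same rat deviated together (median correlation 0.62, against -0.23 between rats, and 95 of 100 arrays nearest to one of their own rat), and same-named rats are the same animal per the labels. The rat as a replicate block, other normalizations and filters, and arrays left out in turn were tried. Leaving out the 10 µM Rs627 array together with the block or with quantile normalization was chosen after seeing the data. Figures were drawn with matplotlib 3.10.9 in Python 3.11.15.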

Additional observations from a re-analysis of the deposited data

Results flagged for a closer look

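The change at 10 µM differed between 6 h and 2 h for 4 genes in limma's test of the difference with all arrays. No gene passed after centring, or without the 10 µM Rs627 array of 6 h or any 1 of several other arrays. On the log2 scale it was larger at 6 h by 0.74 for Pgrmc2, 0.76 for Acat1 and 0.66 for Lonp2, and the difference was -0.99 for Fbxo34.

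In 7 of 129 named genes examined, 1 of the 4 arrays at 0 µM and 6 h lay far from the other 3 by Dixon's criterion. Chance meets that criterion in about 1 in 20 groups, so 7 of 129 is near the number chance gives. Rs631 read 6.22 for Slc34a2 and 7.46 for Acox2, both below the others. Rs632 was the low array for Jun (10.22), Klf6 (10.25) and Cat (11.74). Rs627 was the high array for Cpt1b (7.22) and Acsl5 (10.81).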

How the results depend on the processing

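The counts of called genes moved with the setting while no named gene changed the sign of a called value. For 10 against 0 µM, the replicate block gave 1282 genes (254 higher, 1028 lower), and the block without the 10 µM Rs627 array 237 higher and 62 lower. Centring gave 300 higher and 67 lower, quantile normalization 214 higher, and quantile normalization without that array 175 genes, 27 of them lower. Without the arrays of low signal 163 passed (19 lower), with the 6 h arrays alone 154 were lower, and at 1.5-fold or more 251 passed (151 lower). With each array left out in turn, 135 to 1831 genes passed, 103 to 233 higher and 11 to 1598 lower. The count was 135 without the 10 µM Rs627 array, 1831 without that of Rs631 and 1071 without that of Rs632, and at 0 µM it was 209 without Rs631 and 234 without Rs632, while 144 were lower without Rs628. The cause was not tested. The difference between 10 and 1 µM gave 0 genes in limma under each setting run. The difference between 6 h and 2 h gave 23 genes with the replicate block, 30 with the block without the 10 µM Rs627 array, 2 with quantile normalization without it, 1 with every probe set tested or without the arrays of low signal, and 0 with centring. With each array left out it gave 0 to 12 genes (12 without the 0 µM Rs628 array of 6 h). The median log2 change of all genes was -0.19, against 0.01 without the 10 µM Rs627 array and 0.08 after centring.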
